A study of Mus musculus with 20 samples.

Results

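Neutrophils, the most abundant white blood cells of the innate response, carry their antimicrobial proteins in granules and in the cytosol. Genes of these proteins were followed across mouse livers taken during a time course of trauma and hemorrhagic shock. The set held 8 genes: S100a8 and S100a9 (calprotectin), Ngp, Camp, Ltf and Mmp8 (granule proteins), and Clec4e and Csf3r (surface receptors). They were found as the probe sets of the Affymetrix Mouse430_2 array whose annotation gives that symbol alone. That gave 9 probe sets of 45101, and 8 genes of the 18193 with a probe set of a single gene.

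Whole liver RNA of male C57BL/6 mice aged 8 to 12 weeks was hybridised to 20 arrays. The groups were mice that were not manipulated (control, n = 5), mice with a minor trauma (n = 3), mice with severe trauma plus hemorrhagic shock lasting 1.5 h (shock, n = 4), and mice with that shock and trauma followed by resuscitation for 1 h (n = 4) or for 4.5 h (n = 4). No label tells how the minor trauma was inflicted. The labels number the replicates of a group without saying that each came from its own animal, so the p-values measure the spread between these arrays. The comparisons with control all share the same 5 control arrays.

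Array medians of the deposited signal ran from 14.05 to 29.11, and all arrays were brought to 1 common distribution with a median of 4.60 on the log2(signal + 6) scale. Some arrays stood apart. Control replicate 5 correlated best with minor trauma replicate 2 over all genes tested (r = 0.983), and no other control array correlated best with an array of another group. Minor trauma replicate 3 had the lowest array weight (0.177). Shock replicate 4 had the highest median signal (29.11, the other shock arrays 14.14 to 17.33), so normalization lowered its levels relative to theirs. Its deposited signal was 427.5 for S100a8 (532.4 to 1089 on the other shock arrays) and 37.96 for Ngp (19.39 to 31.84). How much of its low levels below comes with that scaling was not tested. The poly-A spike-in control dap was high (283 to 1455) on 10 arrays and low (1.11 to 6.67) on the other 10, with arrays of every group in both sets. The values below are given with and without control replicate 5 and shock replicate 4 where those arrays moved them.

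S100a8 and S100a9 form a heterodimer, calprotectin, that binds calcium and metal ions, makes up much of the neutrophil cytosol and acts on Toll-like receptor 4 when released. Granules form in order while a neutrophil matures in the bone marrow. Primary granules, with myeloperoxidase and elastase, come first, and secondary and tertiary granules, with lactoferrin, cathelicidin, neutrophilic granule protein and the collagenase Mmp8, come later. Csf3r is the receptor of granulocyte colony-stimulating factor, which drives the production and release of neutrophils. Clec4e (Mincle) is a C-type lectin that recognises microbial glycolipids and products of dying cells.

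The sequences upstream of 4 of the genes are shown because S100a8 and S100a9 had the largest changes of the 6 genes tested, and Ngp and Mmp8 were the granule genes that passed the filter on low values. Each is the 250 bases before the RefSeq start of the gene on build GRCm38.p6, read 5′ to 3′ on the gene's own strand. They lie at chr3:90668821-90669070 (S100a8, plus strand), chr3:90695722-90695971 (S100a9, minus strand), chr9:110419558-110419807 (Ngp, plus strand) and chr9:7558179-7558428 (Mmp8, plus strand). Capitals mark matches on either strand to TTGCNNAA, a core of the motif of C/EBP factors, or to GAGGAAGT, a form of the PU.1 motif.
S100a8: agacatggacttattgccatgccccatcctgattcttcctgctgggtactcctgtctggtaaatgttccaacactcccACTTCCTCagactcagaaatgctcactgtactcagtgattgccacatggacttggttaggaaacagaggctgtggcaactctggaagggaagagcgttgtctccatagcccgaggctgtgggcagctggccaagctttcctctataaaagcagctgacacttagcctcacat
S100a9: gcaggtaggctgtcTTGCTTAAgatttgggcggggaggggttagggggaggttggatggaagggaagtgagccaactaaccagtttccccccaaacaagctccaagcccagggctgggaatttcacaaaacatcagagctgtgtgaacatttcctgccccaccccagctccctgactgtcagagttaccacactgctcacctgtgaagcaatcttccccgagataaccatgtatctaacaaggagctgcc
Ngp: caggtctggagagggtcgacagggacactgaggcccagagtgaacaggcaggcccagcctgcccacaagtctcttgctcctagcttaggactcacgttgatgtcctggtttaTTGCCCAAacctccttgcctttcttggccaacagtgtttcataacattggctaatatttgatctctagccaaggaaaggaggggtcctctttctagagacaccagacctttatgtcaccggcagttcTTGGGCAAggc
Mmp8: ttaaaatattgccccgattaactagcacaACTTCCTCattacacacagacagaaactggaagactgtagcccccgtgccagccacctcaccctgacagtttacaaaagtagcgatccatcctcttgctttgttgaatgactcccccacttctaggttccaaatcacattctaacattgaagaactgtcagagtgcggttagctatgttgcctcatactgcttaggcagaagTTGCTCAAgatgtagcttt

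In the window of S100a8 the match was to the PU.1 motif (ACTTCCTC, the reverse complement), 172 bases upstream of the start. S100a9 had 1 C/EBP match (TTGCTTAA), 236 bases upstream. Ngp had 2 C/EBP matches, TTGCCCAA at 138 bases and TTGGGCAA at 11 bases. Mmp8 had a PU.1 match (ACTTCCTC) at 221 bases and a C/EBP match (TTGCTCAA) at 19 bases. Of the members not printed, Ltf (TTGGGCAA at 75 bases) and Clec4e (TTGTGCAA at 66 bases) had 1 C/EBP match each, and Camp and Csf3r had none of the motifs searched. The C/EBP letters were present in 9.57% and the PU.1 letters in 2.44% of all 32817 windows of that length. The motifs TTCCNGGAA (STAT), TGANTCA (AP-1) and that of NF-kB, searched in the same way, had no match in any of the 8 windows. The 3 were present in 0.914%, 6.75% and 3.90% of all windows. The searches had no overlapping matches, and a match describes the letters only.

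S100a8, the smaller calprotectin subunit, was measured by probe set 1419394_s_at, whose suffix marks probes shared by more than 1 transcript. Its log2 level on the 5 control arrays was 4.04, 3.76, 4.71, 4.85 and 7.53. The minor trauma arrays gave 7.97, 7.72 and 6.26, and the shock arrays 10.18, 9.34, 10.05 and 7.98. The first 4 control arrays lay near or below the array median and control replicate 5 lay among the minor trauma arrays. After 1 h of resuscitation the levels were 10.29, 10.99, 10.94 and 10.32, and after 4.5 h they were 11.02, 11.09, 11.22 and 10.95. Each shock and resuscitation array was above each control array, and the levels of the 4.5 h arrays lay closest together (SD 0.11, n = 4, against 1.49, n = 5, in the controls). As deposited signal, the gene ran from 6.48 to 187 in the controls and from 1382 to 2468 at 4.5 h.

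S100a8 was 21.3-fold higher after shock than in the controls (log2 difference 4.41 ± 0.56, SE; limma, adjusted p = 2.92e-05). It was 50.4-fold higher after 1 h of resuscitation (5.66 ± 0.56, adjusted p = 3.85e-07) and 68.2-fold higher after 4.5 h (6.09 ± 0.56, adjusted p = 3.06e-08). Without control replicate 5 the log2 differences were 5.05, 6.29 and 6.73, with the mean of the other 4 controls (4.34) below the array median, so no fold is given for them. Without shock replicate 4 the shock difference was 4.86 (adjusted p = 1.00e-05). After minor trauma the gene was 5.04-fold higher (2.33 ± 0.61, adjusted p = 0.0396), though the groups overlapped through control replicate 5. Without that array the difference was 2.97 (adjusted p = 1.91e-04), and leaving out any of 7 other arrays (the other 4 controls and the 3 minor trauma arrays, each in turn) ended the call, with adjusted p up to 0.107.

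S100a9, the larger subunit, gave almost the same picture through probe set 1448756_at. The controls were at log2 levels of 4.49, 4.36, 4.73, 4.23 and 7.09. Minor trauma gave 7.62, 7.24 and 6.06, and shock gave 9.91, 8.95, 9.88 and 7.42. Again control replicate 5 was the high control and shock replicate 4 the low shock array, which here overlapped the minor trauma group. The 1 h arrays were at 10.17, 10.82, 10.77 and 10.24 and the 4.5 h arrays at 10.81, 10.91, 10.76 and 10.66, all above every array of the other 3 groups. The fold against control was 16.7 after shock (4.06 ± 0.51, adjusted p = 2.22e-05), 45.9 at 1 h (5.52 ± 0.51, adjusted p = 1.21e-07) and 55.8 at 4.5 h (5.80 ± 0.51, adjusted p = 1.46e-08). Without control replicate 5, which left a control mean of 4.45, below the array median, the log2 differences were 4.59, 6.05 and 6.33, and without shock replicate 4 that after shock was 4.59. The rise after minor trauma (1.99 ± 0.55, adjusted p = 0.0494) was at the edge of the threshold, and leaving out any 1 of 18 of the 20 arrays ended it (adjusted p up to 0.12).

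**Figure D1:**
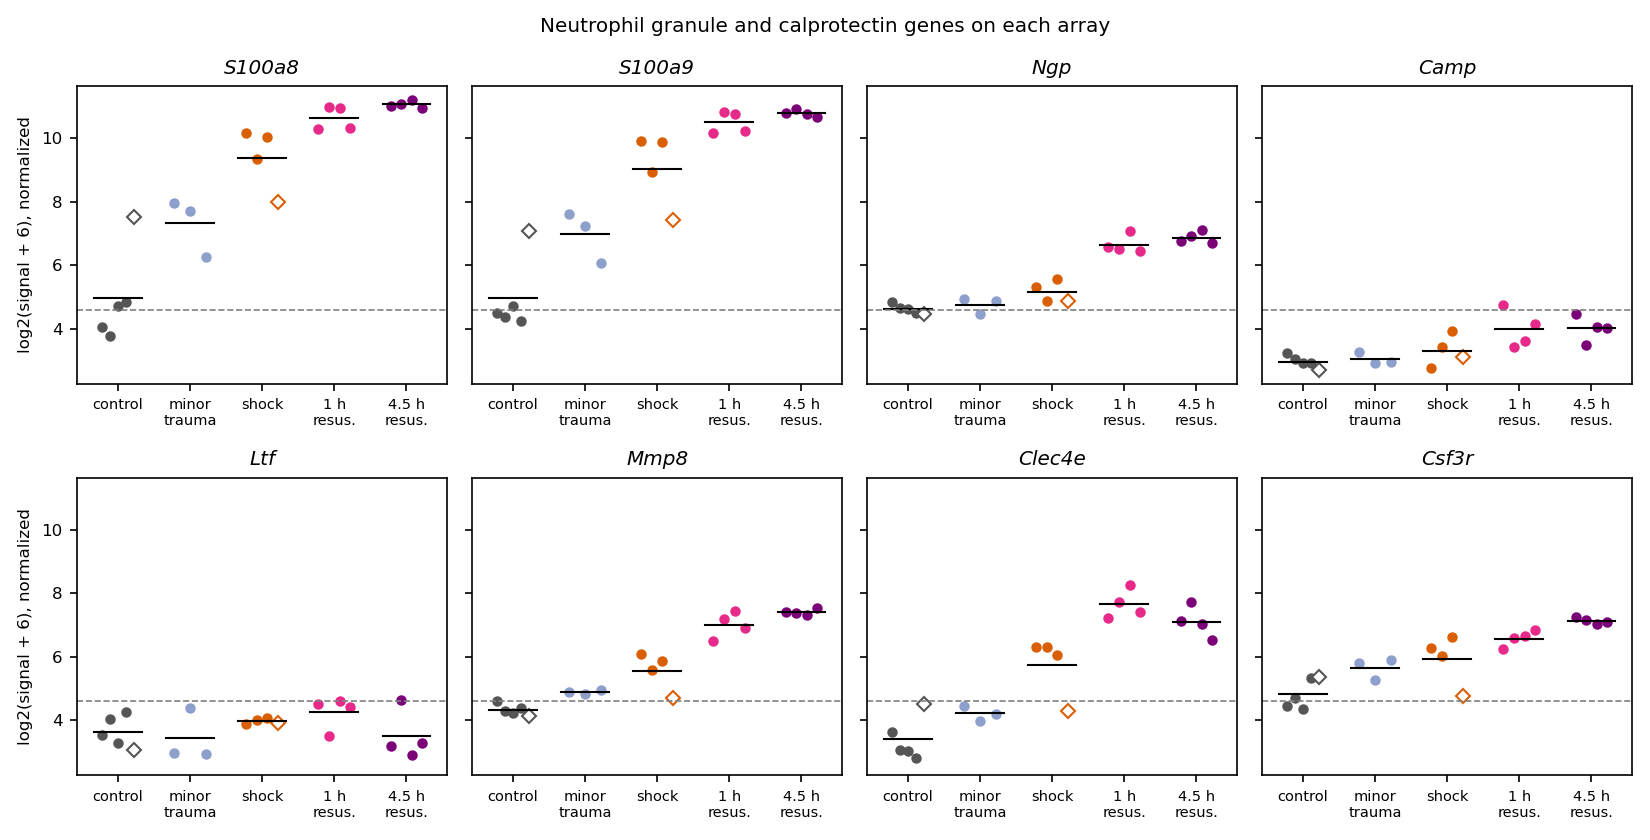
Level of each gene on each array, as log2(signal + 6) after quantile normalization, by group (control n = 5, minor trauma n = 3, the others n = 4). Lines are group means, the dashed line is the common array median (4.60), and open diamonds are control replicate 5 and shock replicate 4. The 6 genes tested had their highest group means in the resuscitated groups, and Camp and Ltf stayed near or below the median.

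Ngp, neutrophilic granule protein, is a secondary granule protein related to the cathelicidins. Its control levels were 4.84, 4.64, 4.62, 4.48 and 4.46, and the minor trauma arrays gave 4.95, 4.46 and 4.86. The shock arrays were only a little higher, at 5.32, 4.86, 5.56 and 4.88. After 1 h of resuscitation the levels were 6.56, 6.51, 7.09 and 6.45, and after 4.5 h they were 6.75, 6.93, 7.10 and 6.69. Both resuscitated groups lay above all other arrays. The shock difference (0.55 ± 0.17) did not pass the test (limma, adjusted p = 0.101), although no shock array fell below a control. Ngp rose 4.13-fold at 1 h (2.05 ± 0.17, adjusted p = 4.86e-08) and 4.79-fold at 4.5 h (2.26 ± 0.17, adjusted p = 2.46e-09). Control replicate 5, the high control for calprotectin, had the lowest Ngp level of the controls.

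Mmp8, the neutrophil collagenase of secondary granules, stood between Ngp and calprotectin. It was at 4.62, 4.29, 4.22, 4.39 and 4.13 in the controls, and at 4.90, 4.84 and 4.94 after minor trauma. The 3 minor trauma arrays lay above all controls, but the difference of 0.56 ± 0.24 did not pass the test (adjusted p = 0.176). Shock arrays gave 6.10, 5.57, 5.85 and 4.71, 1 h arrays 6.49, 7.19, 7.45 and 6.92, and 4.5 h arrays 7.40, 7.38, 7.30 and 7.53. Shock replicate 4 again had the lowest level of its group, though its deposited signal (32.4) was close to that of shock replicate 2 (33.99). Of the 5 control arrays, 1 was above its array's median. The gene was 2.34-fold higher after shock (1.23 ± 0.22, adjusted p = 0.0016), 6.42-fold higher at 1 h (2.68 ± 0.22, adjusted p = 2.51e-08) and 8.41-fold higher at 4.5 h (3.07 ± 0.22, adjusted p = 6.83e-10). Its control mean (4.33) was below the array median, so the size of these folds is uncertain. Without shock replicate 4 the shock difference was 1.50 (adjusted p = 2.09e-05).

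Camp (cathelicidin) and Ltf (lactoferrin), both secondary granule proteins, were above their array's median on 1 array each and so were left out of the main fit. Camp lay between 2.70 and 3.28 on the control and minor trauma arrays, between 2.76 and 3.92 after shock, and between 3.42 and 4.76 in the resuscitated groups, whose arrays were all above all controls. In a fit of all 18193 genes without the filter, Camp was called higher at 1 h (1.02 ± 0.27, adjusted p = 0.0223) and at 4.5 h (1.05 ± 0.27, adjusted p = 0.0048), at levels below the array median in both groups' means (3.99 and 4.02). Ltf ranged from 2.89 to 4.65 over the 20 arrays with every group overlapping the controls. It was not called in any comparison of that fit (adjusted p = 0.359 for any difference among the 5 groups). No fold is given for either gene, since neither was measured well above the low end of the array.

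Clec4e, the Mincle receptor, is made by neutrophils and also by monocytes and macrophages. With probe set 1420330_at, its control levels were 3.62, 3.07, 3.03, 2.82 and 4.50, and the minor trauma levels 4.45, 3.99 and 4.21. All of these were at or below the array median, so that folds against these groups are lower bounds, taken from that median. Shock arrays were at 6.30, 6.32, 6.07 and 4.29, and shock replicate 4 fell within the control range. The 1 h arrays gave 7.22, 7.73, 8.25 and 7.40 and the 4.5 h arrays 7.14, 7.72, 7.03 and 6.53, above every array of the other groups. Against control the gene was at least 2.21-fold higher after shock (2.34 ± 0.38, adjusted p = 5.64e-04; 2.80 without shock replicate 4), at least 8.26-fold higher at 1 h (4.24 ± 0.38, adjusted p = 8.34e-08) and at least 5.66-fold higher at 4.5 h (3.70 ± 0.38, adjusted p = 1.38e-07). Clec4e was the only one of the 6 tested whose mean was lower at 4.5 h than at 1 h, and that difference did not pass the test (-0.55, 95% interval -1.38 to 0.29, adjusted p = 0.32). The second probe set, 1420331_at, was dimmer. It showed the rises at 1 h (1.72 ± 0.23, adjusted p = 2.43e-05) and at 4.5 h (1.47 ± 0.23, adjusted p = 2.96e-05), and for shock it gave 0.60 ± 0.23 (adjusted p = 0.205).

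Csf3r, the G-CSF receptor, was the member with the smallest called rise after shock. The control levels were 4.44, 4.69, 4.35, 5.33 and 5.37, and minor trauma gave 5.79, 5.26 and 5.90. Shock levels were 6.28, 6.03, 6.63 and 4.77, with shock replicate 4 again inside the control range. The 1 h arrays were at 6.23, 6.58, 6.65 and 6.83 and the 4.5 h arrays at 7.24, 7.16, 7.03 and 7.10. All 4.5 h arrays were above all 1 h arrays, but the difference did not pass the test (0.56, 95% interval -0.06 to 1.19, adjusted p = 0.162). Csf3r was 2.13-fold higher after shock (1.09 ± 0.29, adjusted p = 0.0365), 3.33-fold higher at 1 h (1.73 ± 0.29, adjusted p = 2.81e-04) and 4.91-fold higher at 4.5 h (2.30 ± 0.29, adjusted p = 1.89e-06). Leaving out control replicate 1, 2 or 3 or shock replicate 1, 2 or 3 ended the shock call (adjusted p up to 0.175), and leaving out shock replicate 4 gave 1.47 (adjusted p = 4.38e-04).

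**Figure D2:**
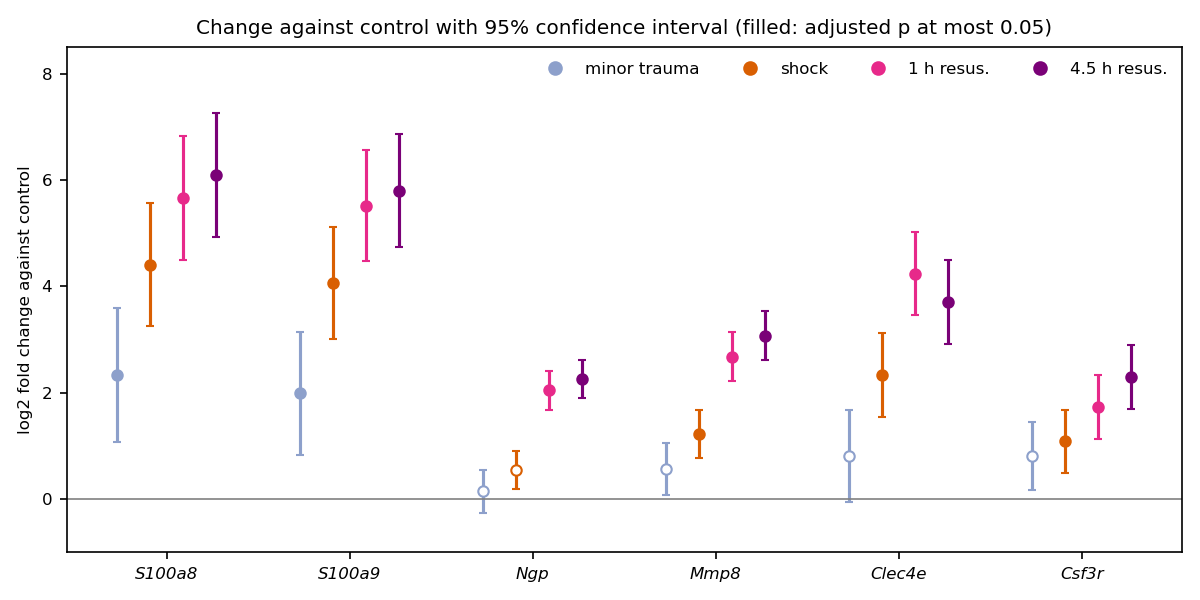
Log2 fold change against control of the 6 genes tested, with 95% confidence intervals, for minor trauma, shock and resuscitation for 1 h and 4.5 h. Filled points passed the threshold (limma, adjusted p at most 0.05). The calprotectin genes had the highest points in every group, followed by Clec4e from shock on.

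Of the 8 members, Camp and Ltf were not tested in the main fit, and Clec4e entered it through arrays of the injured groups only, since no control array was above the median. Counted together, 2 of the 6 genes tested were called higher after minor trauma (S100a8 and S100a9), when 2.07% of all 12832 genes tested were. That share turned on single arrays and ran from 0% (without minor trauma replicate 3) to 5.20% (without control replicate 5) when 1 array was left out, with 0.447% to 0.617% without control replicate 1, 2 or 3. After shock 5 of 6 were (all but Ngp), against 2.03% of all genes. At 1 h and at 4.5 h of resuscitation all 6 were, against 4.61% and 15.1%. The median log2 change of the 6 was 0.81, 1.78, 3.46 and 3.39 in that order, beside medians of 0.00 to -0.09 over all genes tested. The shares of all genes called lower, for the lists read further on, were 1.37%, 1.08%, 5.31% and 23.8%.

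The calls of all 6 at 1 h and 4.5 h held whichever of the 20 arrays was left out. Without control replicate 5 and shock replicate 4 together, a choice made after seeing the data, 4 were called after minor trauma, 5 after shock and 6 in each resuscitated group. Within the 10 arrays of high dap, 2 a group, the counts were 3, 5, 6 and 6. Within the 10 of low dap, with 3 controls and 2 arrays in each other group compared, they were 0 after shock, 5 at 1 h and 6 at 4.5 h, and minor trauma had too few arrays. In that low dap set, which held both control replicate 5 and shock replicate 4, the shock differences of S100a8 (3.68) and S100a9 (3.25) kept their direction. The high dap set held neither of those arrays.

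Between the injured groups, shock was above minor trauma for S100a8 (2.08 ± 0.64, adjusted p = 0.0431), S100a9 (2.07 ± 0.58, adjusted p = 0.0268) and Clec4e (1.53 ± 0.43, adjusted p = 0.0282), 3 of 6, where 4.18% of all genes were called higher. For Clec4e no minor trauma array was above the array median, so its rise is a lower bound of 2.21-fold and its call is a description. Its second probe set gave 0.56 (limma, adjusted p = 0.18) and was not called. Each of the 3 calls ended when certain single arrays were left out, 11 of 20 for S100a8, 4 for S100a9 and 5 for Clec4e. Minor trauma replicate 3 and shock replicates 1, 2 and 3 were among them in each case. The adjusted p reached 0.215, 0.147 and 0.0888. Against minor trauma, 5 of 6 were higher at 1 h (4.77% of all genes) and 6 of 6 at 4.5 h (10.7%). The gene not called at 1 h was Csf3r (0.92 ± 0.32, adjusted p = 0.0683).

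From shock to 1 h of resuscitation, 2 granule genes and Clec4e passed the test. Ngp rose by 1.50 ± 0.18 (adjusted p = 7.45e-05), Mmp8 by 1.46 ± 0.23 (adjusted p = 0.00136) and Clec4e by 1.90 ± 0.40 (adjusted p = 0.0157), 3 of 6, where 0.873% of all genes were called higher. The calprotectin genes had differences of similar size, 1.25 for S100a8 (95% interval 0.02 to 2.47, adjusted p = 0.46) and 1.46 for S100a9 (0.35 to 2.57, adjusted p = 0.253), that did not pass the test. Every 1 h array was above every shock array for both genes. Without shock replicate 4 their differences fell to 0.77 and 0.92, the lowest with any 1 array left out. The lowest such values were 1.36 for Ngp and 1.17 for Mmp8. The call of Clec4e ended without shock replicate 4 (1.42, adjusted p = 0.0552), or without 1 h replicate 2 or 3 (adjusted p up to 0.0834). All 6 were higher at 4.5 h than after shock, with 15.8% of all genes called higher, by 1.21 (Csf3r) to 1.85 (Mmp8). Without shock replicate 4 those of S100a8 (1.21, adjusted p = 0.124) and S100a9 (1.20, adjusted p = 0.0684) were not called. That of S100a8 also ended without shock replicate 2 or any of 4.5 h replicates 1, 2 and 3.

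From 1 h to 4.5 h none of the 6 was called (limma, adjusted p from 0.162 to 0.73), while 14.9% of all genes were called higher and 18.2% lower. The intervals still allow changes, for example -0.79 to 1.66 for S100a8 and -0.09 to 0.87 for Mmp8. Ordered by mean level, the 5 groups ran control, minor trauma, shock, 1 h and 4.5 h for S100a8, S100a9, Ngp, Mmp8 and Csf3r, with the last pair exchanged for Clec4e. Neighbours that no test separated were 1 h and 4.5 h for all 6 genes, shock and 1 h for S100a8, S100a9 and Csf3r, minor trauma and shock for Ngp, Mmp8 and Csf3r, and control and minor trauma for Ngp, Mmp8, Clec4e and Csf3r.

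Whether the members changed by unequal amounts was tested within arrays, as the log2 level of S100a8 minus that of each other gene, set against the same difference in the controls. Of 21 such tests, 17 passed (two-sided exact permutation test over arrays, adjusted over the 21). The 6 tests against Camp and Ltf, all among the 17, are set aside, since those probe sets were too dim to give a change, which leaves 11 of 15 (also 11 when adjusted over the 15, a count made after seeing the data). None of the 3 tests against S100a9 passed, where the extra change of S100a8 was 0.35 after shock, 0.14 at 1 h and 0.29 at 4.5 h (exact p = 0.286, 0.635 and 0.349). S100a8 changed more than Ngp by 3.86, 3.61 and 3.83 on the log2 scale at those 3 points (exact p = 0.0159 each, the smallest that 4 against 5 arrays allow, adjusted p = 0.0238). Against Mmp8 the excess was 3.18, 2.97 and 3.02, and against Csf3r 3.32, 3.92 and 3.80.

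For Clec4e the excess was 2.07 after shock (exact p = 0.0317, adjusted p = 0.0392), 1.41 at 1 h (exact p = 0.0476, adjusted p = 0.0556, not called) and 2.39 at 4.5 h (exact p = 0.0159, adjusted p = 0.0238). Clec4e was at or below the array median on all control arrays, so the size of its own change, and of this excess, is uncertain. The log2(signal + 6) scale understates the change of genes that are dim in the controls, and the differences carry that. With a pseudocount of 0.5 in place of 6, 5 of the 15 tests passed. The excess over Clec4e then fell to 1.34, 0.53 and 1.53 (adjusted p = 0.118, 0.533 and 0.0606), so that no test against Clec4e passed. None of the 3 against Mmp8 passed either, the excess over Ngp was 4.13, 3.72 and 3.93 (adjusted p = 0.0606, 0.0476 and 0.0476), and the 3 tests against Csf3r still passed. Without control replicate 5 the excess over Ngp was 4.54, 4.29 and 4.51. Without shock replicate 1 or 3, 6 of the 15 passed.

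**Figure D3:**
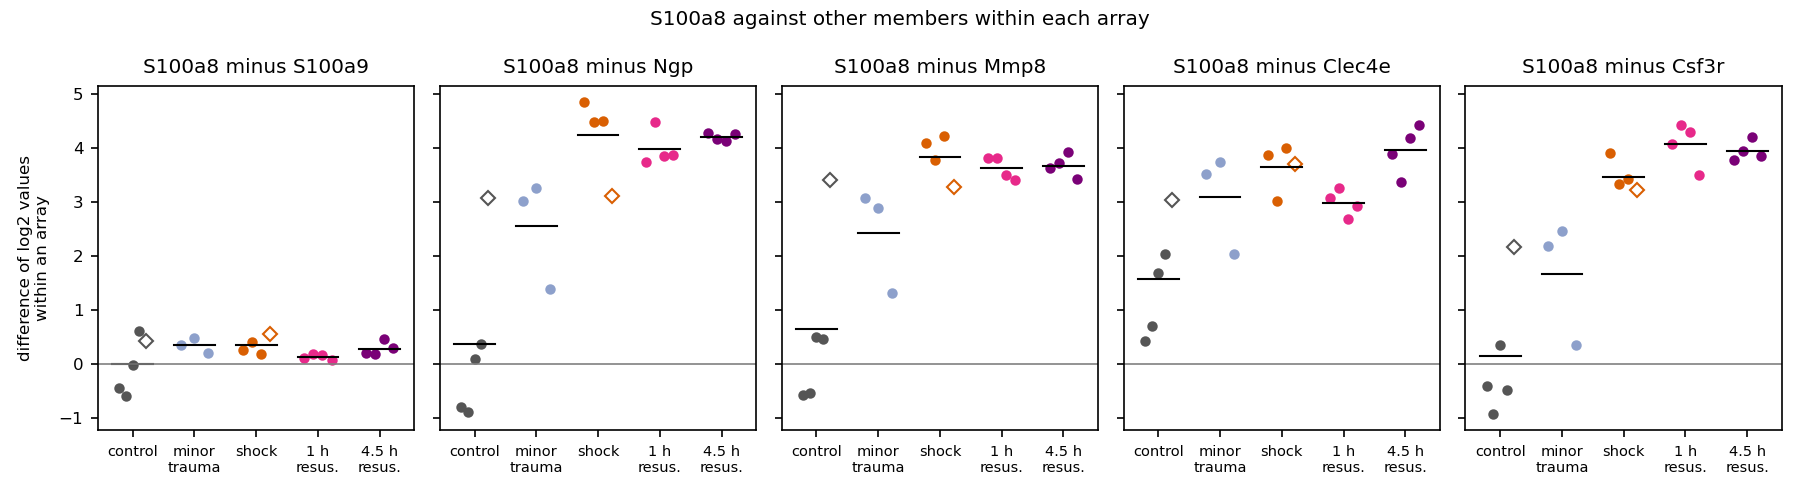
Log2 level of S100a8 minus that of 5 other genes within each array, by group. Lines are group means, and open diamonds are control replicate 5 and shock replicate 4. The zero line compares different probe sets and carries no meaning of its own, so only the shift from control to the other groups can be read. S100a9 stayed within the control range while Ngp, Mmp8 and Csf3r fell behind S100a8 after shock and resuscitation. Minor trauma was not tested. Its arrays gave 3.02, 3.25 and 1.39 for Ngp, 3.07, 2.88 and 1.31 for Mmp8, and 2.18, 2.46 and 0.36 for Csf3r. The control means were 0.37, 0.65 and 0.14.

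Within groups, S100a8 and S100a9 also varied together. The deviations of the arrays from their group means had Pearson r = 0.95 and Spearman rho = 0.96 over 20 arrays, and r = 0.90 without control replicate 5 and shock replicate 4. For S100a8 and Ngp the deviations gave r = 0.09 (rho = 0.17), for S100a8 and Mmp8 r = 0.28 (rho = 0.31), and for Ngp and Mmp8 r = 0.57 (rho = 0.44). Clec4e gave r = 0.69 with S100a8 and 0.79 with S100a9, and Csf3r gave 0.59 and 0.61. Without those 2 arrays these fell to 0.40, 0.56, 0.35 and 0.28, while Mmp8 then gave 0.34 with S100a8 and 0.44 with S100a9, so that the receptors' values rested in part on the 2 arrays and Csf3r stood no nearer to calprotectin than Mmp8. These are descriptions, and all genes of an array share its RNA and its hybridisation.

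**Figure D4:**
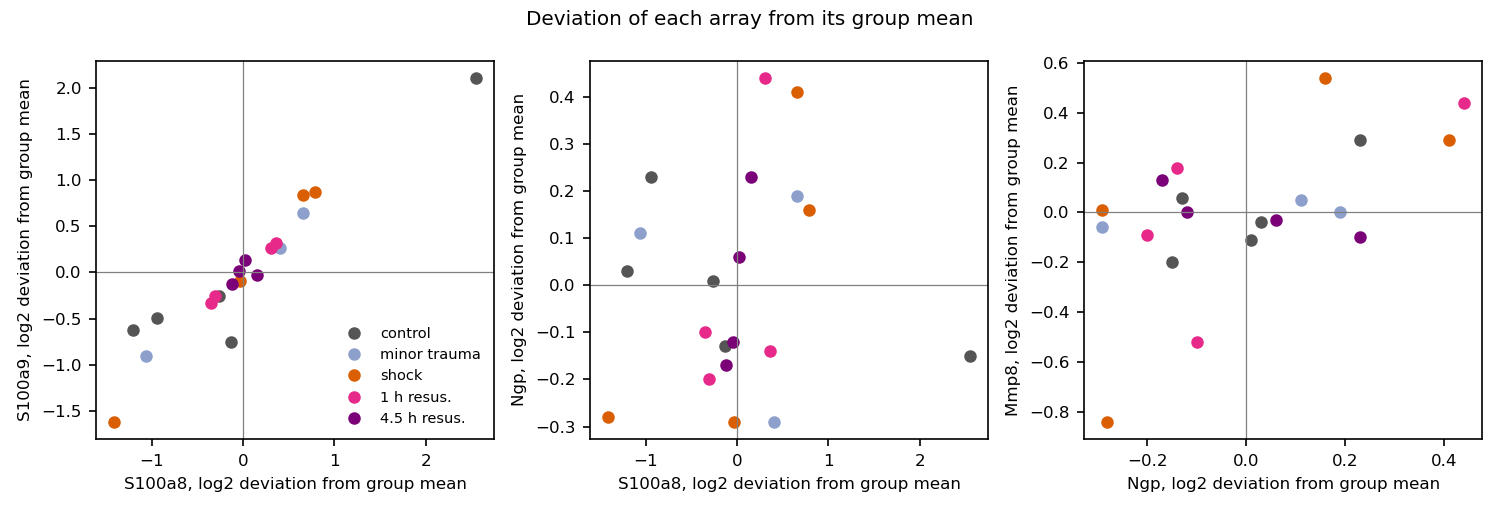
Deviation of each array from its group mean (log2 scale, 20 arrays coloured by group) for S100a9 against S100a8, Ngp against S100a8, and Mmp8 against Ngp. The calprotectin points follow a line (r = 0.95), with control replicate 5 at the top right and shock replicate 4 at the bottom left, while those of Ngp against S100a8 do not (r = 0.09).

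S100a8 and S100a9 are direct neighbours on chromosome 3 in the RefSeq annotation of GRCm38.p6, between S100a7a and Pglyrp4. Ngp, Camp, Ltf and Mmp8 all lie on chromosome 9, but none of them is next to another. Clec4e lies on chromosome 6 beside Clec4d, a related lectin receptor, and Csf3r on chromosome 4. Of the S100 genes, a family of small calcium-binding proteins, 7 others were tested. None was called after minor trauma or shock, S100a6 (1.18 ± 0.30, adjusted p = 0.013) rose at 1 h, and at 4.5 h S100a6 (1.17) was higher and S100a16 (-0.56) was lower. S100a4, called higher at 4.5 h, was above the array median on the 4 arrays of that group alone and was at least 1.16-fold higher. The median change of the 7 was 0.19 at 4.5 h, beside -0.09 over all genes. S100a4 was named after its value was seen.

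Other genes of neutrophils were read from lists. Some of these genes were above the array median on no control array and passed the filter through injured groups, so that their rises are lower bounds taken from that median and counts that hold them are descriptions. Of 15 surface receptors tested, 0 were called after minor trauma, 7 were higher after shock, 7 at 1 h and 10 at 4.5 h, and none was lower, with 6 of the 15 above the median on no control array. The decoy interleukin 1 receptor Il1r2 rose by 1.41 ± 0.29 after shock, 2.46 ± 0.29 at 1 h and 3.21 ± 0.29 at 4.5 h. In the same order the chemokine receptor Ccr1 was at least 1.02-fold, 1.51-fold and 2.28-fold higher and Clec4d at least 1.79-fold, 4.25-fold and 3.88-fold higher. Cxcr2, the main neutrophil chemokine receptor, Itgam and Clec5a did not pass the filter on low values, and Fpr1 and Ly6g had no probe set of their own in the annotation used. Of 11 genes of the cytosol and its enzymes, 0, 1, 5 and 9 were higher in the same order and none lower, with 2 above the median on no control array. Histidine decarboxylase, Hdc, led with 2.13 ± 0.34 after shock and 3.47 ± 0.34 at 4.5 h, and Rac2, a subunit of the NADPH oxidase, rose by 0.58 ± 0.15 at 1 h and 0.96 ± 0.15 at 4.5 h. Stfa2l1, a stefin, was at least 1.22-fold higher at 4.5 h (adjusted p = 3.89e-04), when 3 of its 4 arrays were above the median.

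Of 11 other genes of secondary and tertiary granules, 1, 2, 5 and 7 were higher in that order, and 1 was lower at 4.5 h. No control array was above the median for 5 of them. Chil3 was at least 9.14-fold higher at 4.5 h (adjusted p = 5.99e-10), and it was called at 1 h with both means (4.25 and 3.16 in the controls) below the median, so no size is given. Slpi, a protease inhibitor, rose by 0.60, 0.89 and 2.24 from shock to 4.5 h. Lcn2, which hepatocytes also make in the acute-phase response, was the gene called after minor trauma (4.46 ± 0.86, adjusted p = 0.015), and had 0.69 after shock (adjusted p = 0.78) and 5.29 at 4.5 h. Its minor trauma call ended without minor trauma replicate 3, when 0% of all genes tested were called. The gene lower at 4.5 h was Lyz2 (-1.06, adjusted p = 8.92e-04), lysozyme, which macrophages also make, and it was named after its value was seen. Of 4 primary granule genes tested, 0 were called higher, but they bear little weight. Mpo and Elane were above the array median on 6 and 5 of the 20 arrays, with group means of 4.18 to 4.61, and Ms4a3 on 14, with means of 4.60 to 4.97, so that these probe sets lay near the low end of the array. Their changes against control lay between -0.19 and 0.39. Lyz1 was lower at 4.5 h (-1.12 ± 0.20, adjusted p = 1.17e-04). Ctsg was above the array median on no array.

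**Figure D5:**
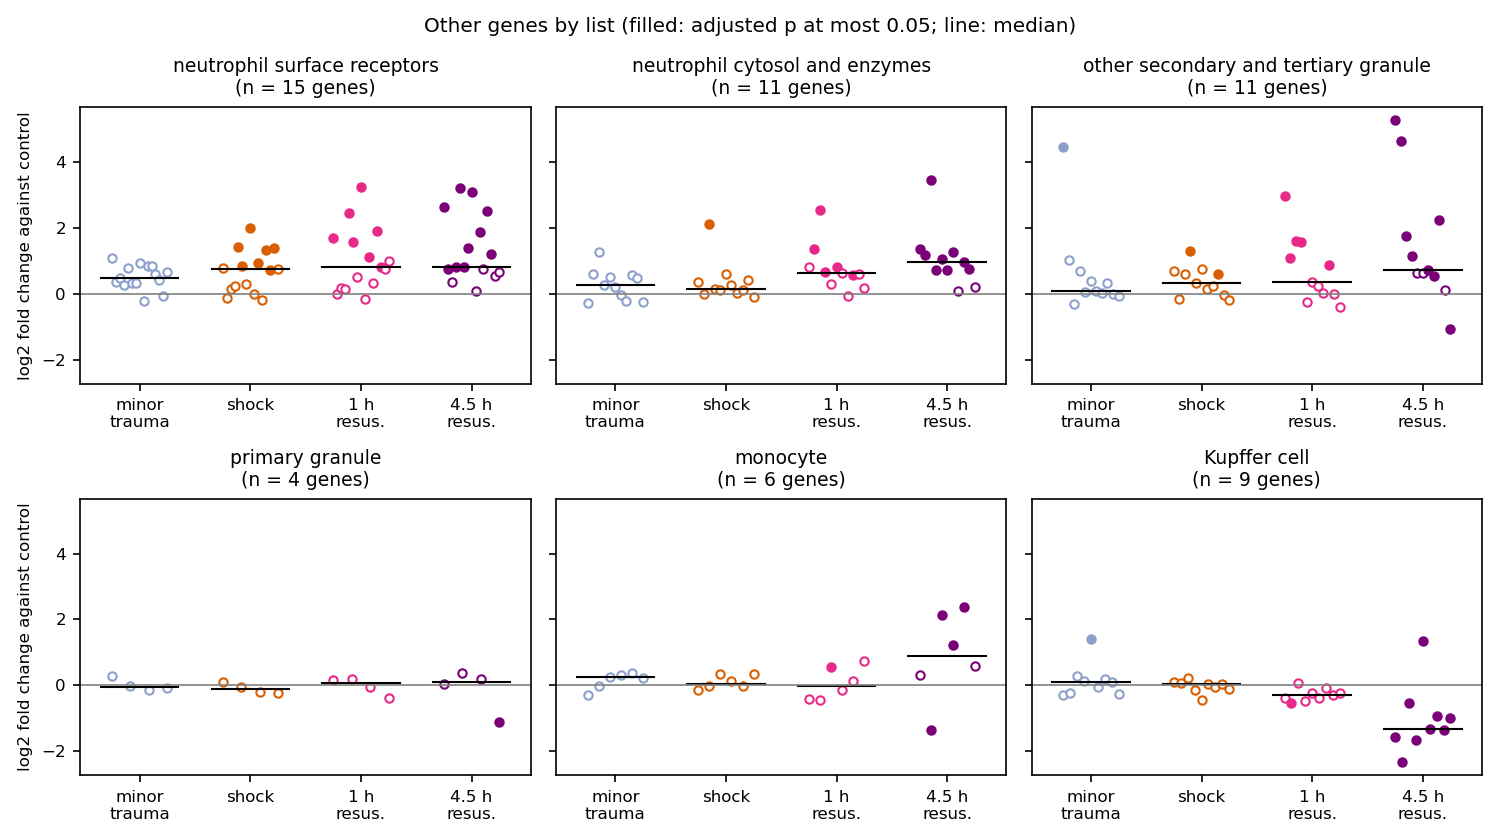
Log2 fold change against control for the genes of 6 lists (n of genes tested in each title), by group. Filled points passed the threshold (limma, adjusted p at most 0.05) and lines are medians. Neutrophil receptors and cytosol genes gained called genes from shock to 4.5 h, the primary granule list held no gene called higher, with Mpo and Elane near the array median, and monocyte and Kupffer cell genes changed mainly at 4.5 h.

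Of 11 genes of the G-CSF axis and of granulocyte transcription factors, 3 were higher and 1 lower after minor trauma, 3 were higher after shock, 4 at 1 h, and 8 were higher and 1 lower at 4.5 h. Cebpd, a C/EBP factor, rose by 1.88, 1.89, 2.54 and 2.81 in that order. Stat3, which carries the signal of the receptor, rose by 1.06 ± 0.21 after minor trauma and 1.59 ± 0.19 at 4.5 h, and gave -0.09 after shock (adjusted p = 0.90). The kinase gene Jak2 was lower after minor trauma (-0.95 ± 0.23, adjusted p = 0.029) and higher at 4.5 h (1.01 ± 0.21). All minor trauma calls of this list ended without minor trauma replicate 3, when 0% of all genes tested were called higher or lower. The ligand gene Csf3, named after its values were seen, was higher at 1 h (1.88 ± 0.37, adjusted p = 0.0018) and at 4.5 h (1.49 ± 0.37, adjusted p = 0.0027). Hepatocytes express several of these factors as well.

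Of 8 genes for receptors of calprotectin and for Mincle signalling, 0, 1, 2 and 5 were higher in the same order and none lower. Cd14, the co-receptor of Toll-like receptor 4, rose by 2.63 ± 0.29, 3.54 ± 0.29 and 4.60 ± 0.29 from shock to 4.5 h. Fcer1g, the adaptor of Mincle, rose at 4.5 h only among the 4 comparisons with control (1.32 ± 0.15). Bcl10 rose by 0.85 ± 0.15 at 1 h and 0.78 ± 0.15 at 4.5 h. Tlr4 itself had changes of 0.16 to 0.34 and was not called. Its group means (4.31 to 4.65) lay near the array median (4.60), and it was above that median on 10 arrays. Its probe set thus lay near the low end of the array, and the missing call bears little weight.

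Markers of other cells that make some of these transcripts were read beside them. Of 6 monocyte genes tested, 0 were called after minor trauma and 0 after shock, 1 was higher at 1 h (Plac8, 0.55 ± 0.15), and 3 were higher and 1 lower at 4.5 h. At 4.5 h Plac8 rose by 2.14 and Csf1r fell by 1.34. F13a1 was at least 4.10-fold higher, with all 4 arrays of 4.5 h and no control array above the median. List sums were taken from the normalized signal on its linear scale. The summed signal of the monocyte list was 1050 to 1510 in the controls, 1180 to 1770 after minor trauma, 1300 to 1470 after shock, 1110 to 1250 at 1 h and 1680 to 1950 at 4.5 h. That sum rests mostly on the brightest genes, Csf1r (mean log2 level 9.88 in the controls) and Plac8 (7.96). These moved in opposite directions at 4.5 h, so the sum does not measure monocyte content. Of 9 Kupffer cell genes, 8 were lower at 4.5 h, when 23.8% of all genes were (Vsig4 by -2.34, Cd5l by -1.67 and C1qc by -1.34 among them) and 1 higher (Marco, 1.36, named after its value was seen). Their summed signal was 3000 to 4870 in the controls, 3390 to 4080 after shock, 2470 to 3300 at 1 h and 1300 to 1790 at 4.5 h. None of the monocyte or Kupffer cell genes was at 0, and the part of these cells in the rises of the members, Cd14 and Clec4d was not tested. After shock no gene of either list was called, when 2.03% of all genes were called higher and 1.08% lower. For 2 of the 6 monocyte genes no control array was above the median. Hepatocyte genes (Alb, Ttr and 5 others) summed to 49100 to 56500 on all 20 arrays. All arrays were brought to 1 common distribution, which limits how far a sum of bright genes can move, so it does not measure hepatocyte content. In whole liver, more neutrophils, more of these transcripts per neutrophil and transcripts made by other cells cannot be told apart. This holds for S100a8 and S100a9 as well.

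The genes whose pattern over the 20 arrays was most like the mean standardized level of the 6 members were Srgn (r = 0.980), Cd14 (0.973), Akap12 (0.967), Marcksl1 (0.966), Il1r2 (0.964), Ccr1 (0.963), Acod1 (0.962) and Clec4d (0.959). The median r over all genes was -0.12, and these correlations are mostly of group differences. The members' own r with the mean of the other 5 ran from 0.906 (Ngp) to 0.965 (S100a9). Srgn, serglycin, which packs proteases into granules, rose by 1.27 after shock, 1.96 at 1 h and 2.35 at 4.5 h. Acod1, an enzyme that makes itaconate in activated myeloid cells, was above the median on no control array, and was called after shock (adjusted p = 0.0198) with a mean below the median, at least 6.53-fold higher at 1 h and at least 14.4-fold higher at 4.5 h.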

How the data were processed

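Gene expression was measured on 20 arrays, and the members and all gene lists were chosen with earlier results of these data known. The deposited values are intensity signals on a linear scale, 1 per probe set, which the authors made with MAS5 per the submitters' processing notes; its version and settings are not given in the sources used here. All 45101 probe sets were taken as log2(signal + 6) and quantile normalized. Symbols came from the platform annotation: 34945 probe sets had a single gene, 932 several and 9224 none, and 64 control probe sets were left out. A probe set was kept if above its array's median on at least 3 arrays, and the brightest kept 1 stood for its gene, which left 12832 genes.

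limma 3.58.1 (R 4.3.3; 5 group means over 20 arrays, eBayes with trend) gave 10 comparisons, each with Benjamini-Hochberg adjustment over all genes tested and a threshold of 0.05. The fit was tested on simulated data. Errors in the text are SE unless called SD. A fold from the log2(signal + 6) scale understates changes of dim genes; where the lower group was at or below the array median on every array, a lower bound is given. Arrays report no depth, so the number of arrays limits precision.

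The text names all 8 members, up to 3 genes of each of 14 lists with the smallest F test p, and the 8 genes most like the members' mean. Some list genes are named outside that rule. They include Tlr4, primary granule and hepatocyte genes, genes that were not tested, and those marked as named after their values were seen. Alternatives were other scalings, pseudocounts and filters, mean probe sets, array weights, the spike-in sets, a replicate block and leaving arrays out. Same-numbered arrays of different groups did not vary together (36 pairs, median r 0.0037, 3 above 0.1). The labels do not say whether the numbers pair arrays, and the main fit used no pairing. Promoter sequences were RefSeq's (GRCm38.p6).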

Additional observations from a re-analysis of the deposited data

Results flagged for a closer look

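Of 32 sets of a gene's levels in a group of 4 or 5 arrays, 5 had 1 array far from the others by Dixon's test, which flags about 1 in 20 by chance. Control replicate 5 was high for S100a8 (log2 level 7.53, the other controls 3.76 to 4.85) and for S100a9 (7.09, the others 4.23 to 4.73). Shock replicate 4 was low for Clec4e (4.29, the others 6.07 to 6.32). The 1 h resuscitation replicate 3 was high for Ngp (7.09, the others 6.45 to 6.56), and replicate 2 of that group was low for Ltf (3.49, the others 4.43 to 4.60), a gene near or below the array median throughout.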

How the results depend on the processing

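Leaving out each of the 20 arrays in turn left 6 members called in both resuscitated groups against control and 4 to 5 after shock, but 0 to 2 after minor trauma against control and 0 to 4 for shock against minor trauma. For the unequal change of S100a8 and the other members, 10 to 18 of 21 tests passed when 1 array was left out. The minor trauma count of 2 became 1 with a pseudocount of 18 or the mean of kept probe sets, 0 with no filter or with the spike-in set as a block, and 4 without control replicate 5 and shock replicate 4 together, which also gave 1 call from 1 h to 4.5 h (Csf3r, 0.56). With a pseudocount of 0.5 the count for shock against minor trauma was 1 and that of the unequal changes 7. Within the arrays of low dap, 0 members were called for shock against control, 0 for 1 h against shock and 2 for 4.5 h against shock. That set had 2 or 3 arrays a group, control replicate 5 and shock replicate 4 among them. The 1 reversed value was the extra change of S100a8 over S100a9 at 1 h, which ran from -0.01 (without control replicate 2) to 0.29 when 1 array was left out. The replicate block changed no count by more than 1.5 times (against control, 2 members were called for minor trauma, 5 for shock and 6 in each resuscitated group).

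Without scaling between arrays the median change of all genes was 0.20 after minor trauma and -0.27 at 4.5 h against control, and the members kept their directions, with the shock call of Csf3r lost (1.01, adjusted p = 0.0546). With 3 to 5 arrays a group, calls near the threshold (minor trauma, and Csf3r after shock) turned on single arrays. The probe sets of Camp, Ltf and, in the unmanipulated livers, Clec4e were too dim to size a change. In those livers the mean of Mmp8 (4.33) was also below the array median, so its folds are uncertain.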

Other observations

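Genes of other liver and blood cells gave the following values against control. Of 8 genes of sinusoidal endothelium, the lining of the liver's capillaries, none was called after minor trauma or shock, 1 was higher and 1 lower at 1 h, and 1 was higher and 5 lower at 4.5 h of resuscitation, when 23.8% of all genes were lower. Clec4g fell by 1.80, the growth factor receptor gene Kdr by 2.41 and the Fc receptor gene Fcgr2b by 1.34 at 4.5 h. Of all genes, 2.03% were called higher after shock, 4.61% at 1 h and 15.1% at 4.5 h, and 5.31% were called lower at 1 h. Of 5 platelet genes, Pf4, platelet factor 4, was the one called after shock (0.71 ± 0.17, limma, adjusted p = 0.018) and at 1 h (0.80 ± 0.17), and at 4.5 h Pf4 (0.44) and Ppbp (0.75) were higher. Of 4 lymphocyte genes, Gzma, the granzyme of cytotoxic cells, was higher at 4.5 h (1.58 ± 0.33, adjusted p = 5.74e-04) and the others were not called. Those others had group means of 3.66 to 5.01, near or below the array median, and bear little weight. Alas2, the 1 erythroid gene tested, was not called (changes of -0.23 to 0.13). Of 7 hepatocyte genes, Ass1 was lower at 1 h (-1.79 ± 0.40, adjusted p = 0.0054), and at 4.5 h Fgb (0.34, adjusted p = 0.0018) and Tat (0.63, adjusted p = 0.028) were higher and Cps1 (-0.19, adjusted p = 0.0021) was lower.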
